A study of Homo sapiens with 47 samples.

Results

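Annexin A1 (ANXA1), 7 further annexins (ANXA2, ANXA3, ANXA4, ANXA5, ANXA6, ANXA7 and ANXA11) and the annexin-binding S100 proteins S100A10 and S100A11 were followed through the RNA of 2 human cell lines carrying mutations of NUP58. They are 10 of the 57507 genes quantified, found by symbol, with 1 row each. ANXA1 was selected on measured values of these libraries, its lower level in all 6 mutant HAP1 clones and in the empty-vector line than in wild-type cells. For that contrast its values are therefore a description and carry no test. The other 9 genes were taken as relatives and partners of ANXA1.

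HAP1 is a near-haploid line from a chronic myeloid leukemia and HCT116 a colorectal carcinoma line. The HAP1 libraries numbered 32, namely 4 libraries of wild-type HAP1 (WT), 4 of a control that received Cas9 without a guide RNA (EV) and 4 of each NUP58-mutated line C1 to C6, each of which is 1 clone grown from a single cell. The HCT116 libraries numbered 15, of which 4 carry the label of 1 NUP58-mutated clone and 11 are unedited: 2 WT, 3 EV1, 4 EV2 and 2 controls, both numbered 4, whose title and genotype conflict. The control genotypes of HCT116, EV1 and EV2, also received Cas9 without a guide RNA. The labels name no treatment for any group and give 1 culture protocol for all. Because each mutated line is 1 clone, the effect of the mutation and the history of the clone cannot be told apart within it. The study describes its HAP1 libraries as independent experiments, while the labels say nothing of separate cultures for either cell line, so p-values measure the spread between these libraries, which may in part be technical.

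Annexins are cytosolic proteins that bind acidic phospholipids when calcium rises, through a conserved core made of repeats, while their amino-terminal ends differ and carry the binding sites for partners. S100 proteins are small calcium-binding dimers, and they can join annexin molecules on facing membranes. S100A10 pairs with ANXA2 into a complex that gathers plasminogen and its activator at the cell surface, and S100A11 binds the amino-terminal end of ANXA1. ANXA1 is induced by glucocorticoids in many cells, is a substrate of the EGF receptor and, once released, acts on formyl peptide receptors to dampen inflammation.

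NUP58, the nucleoporin targeted in the study, stood at an FPKM of 34.3 to 50.4 in WT, at 35.3 to 45.0 in EV and at 7.98 to 28.0 in the 24 libraries of the HAP1 clones, all below WT and EV. FPKM is a count of fragments scaled to transcript length and to the mapped fragments of the library. In HCT116 the library labelled Clone replicate 3 had a NUP58 level of 44.7, among the unedited libraries, and the library labelled EV2 replicate 3 had 23.95, among the other clone libraries (23.3 to 25.3). Results for HCT116 are therefore given with all libraries and without those numbered 3. Of the haematopoietic markers, PTPRC, SPI1 and GATA1 were at 0 in every unedited HAP1 library, while CD33 (mean 0.152 FPKM), CD34 (0.0204), MPO (0.00661) and ITGAM (0.00322) were near 0. Of 10 colorectal markers, 6 averaged 1 FPKM or more in unedited HCT116, while KRT20, CDX1, VIL1 and LGALS4 did not. FPKM totals were 604053 to 654081 per HAP1 library and 619798 to 721992 per HCT116 library, and depth, known only relative to WT replicate 1 of HAP1 and judged from the smallest steps between low values, ran from 0.753 to 1.157 and from 0.763 to 0.979. The number of fragments behind a value is unknown.

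In GRCh38, the build of the files, ANXA1 lies on chromosome 9 from 73151865 to 73170393 on the plus strand. S100A10 (chromosome 1, 151982915 to 151993859) and S100A11 (chromosome 1, 152032506 to 152047907) are close neighbours on the minus strand. ANXA3 (78551747 to 78610451, plus strand) and ANXA5 (121667946 to 121696995, minus strand) are on chromosome 4, and ANXA7 (73375101 to 73414076) and ANXA11 (80150889 to 80205572) on the minus strand of chromosome 10. ANXA2 (chromosome 15, 60347134 to 60402883, minus strand), ANXA4 (chromosome 2, 69644425 to 69827112, plus strand) and ANXA6 (chromosome 5, 151100706 to 151157815, minus strand) lie apart. All 10 are annotated as protein-coding. ANXA2 has 3 processed pseudogenes in the table, the highest of which, ANXA2P2, had a mean FPKM of 1.45 in unedited HAP1 and 3.86 in unedited HCT116, and S100A11 has 2, both at 0, so that the levels of these parents may hold or lack some shared reads.

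Upstream of the start site, ANXA1 had the lowest share of G and C of the members' promoters and was the only one with no CpG. The 250 bases before the start site are shown, from RefSeq (GRCh38.p14), for ANXA1 (chr9:73151615-73151864, plus strand), for S100A11 (chr1:152037005-152037254, minus strand) and ANXA5 (chr4:121696981-121697230, minus strand), which fell in the clones, and for ANXA3 (chr4:78551520-78551769, plus strand), which differed most between the cell lines. Capitals mark any of 4 motifs on either strand: TATAAA (the TATA box letters), CCAAT (the CAAT box letters), GGGCGG (the GC box letters) and TGACTCA (the letters of an AP-1 site).
ANXA1: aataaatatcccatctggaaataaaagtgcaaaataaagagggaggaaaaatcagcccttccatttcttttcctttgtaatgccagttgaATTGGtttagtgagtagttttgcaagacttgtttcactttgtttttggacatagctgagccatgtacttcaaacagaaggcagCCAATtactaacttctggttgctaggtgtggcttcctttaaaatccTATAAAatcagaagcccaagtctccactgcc
S100A11: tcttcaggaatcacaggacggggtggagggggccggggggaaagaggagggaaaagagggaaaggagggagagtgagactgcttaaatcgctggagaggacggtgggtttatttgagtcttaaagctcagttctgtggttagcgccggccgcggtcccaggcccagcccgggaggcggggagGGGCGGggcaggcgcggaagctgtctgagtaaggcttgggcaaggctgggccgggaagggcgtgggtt
ANXA5: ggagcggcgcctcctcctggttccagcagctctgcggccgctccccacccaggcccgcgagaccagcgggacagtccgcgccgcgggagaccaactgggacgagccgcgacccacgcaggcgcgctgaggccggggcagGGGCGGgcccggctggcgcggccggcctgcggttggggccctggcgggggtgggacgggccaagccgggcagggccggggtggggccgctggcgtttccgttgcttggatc
ANXA3: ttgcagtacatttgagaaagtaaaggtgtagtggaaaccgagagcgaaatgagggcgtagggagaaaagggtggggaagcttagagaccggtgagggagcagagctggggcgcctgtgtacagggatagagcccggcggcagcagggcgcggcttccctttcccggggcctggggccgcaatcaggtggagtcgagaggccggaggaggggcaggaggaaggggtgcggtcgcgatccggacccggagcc
ANXA1 had 38.4% G and C, no CpG, 1 TATAAA and 2 CCAAT. Of 35116 promoter windows of the same length, 10.1% had a lower share of G and C and 6.1% held no CpG. S100A11 had 63.6% G and C with 15 CpG, ANXA5 78.8% with 31 CpG and ANXA3 64.0% with 18 CpG, against medians of 58.0% and 11 CpG over all windows. All 10 genes matched the table, with 14 windows between them. TATAAA stood in 3 of the 14 and in 10.7% of all windows, CCAAT in 4 and in 32%, GGGCGG in 9 and in 42.6%, and TGACTCA in 1 (ANXA2) and in 4.2%. These are matches of letters and were not tied to any factor.

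ANXA1 was the member with the widest change among the HAP1 lines. Its FPKM in WT was 16.5, 9.47, 9.60 and 7.60 in replicates 1 to 4, and in EV it was 3.42, 6.00, 4.10 and 3.13. All 4 EV libraries lay below all 4 WT libraries. The clones were lower still, with 1.23, 0.592, 0.971 and 1.46 in C1, 2.56, 0.588, 2.05 and 2.57 in C2, and 4.38, 2.41, 1.78 and 3.27 in C3. C4 had 1.75, 0.912, 1.44 and 0.949, C5 had 3.56, 2.64, 1.97 and 3.35, and C6 had 3.02, 2.95, 1.95 and 1.40. All 24 clone libraries lay below the lowest WT library, which the choice of ANXA1 fixed. Of the 13180 genes that averaged 1 FPKM or more over the HAP1 libraries, 0.243% had this pattern in this direction. As a share of the WT mean of 10.8 ± 3.92 FPKM (SD, n = 4), EV stood at 38.5%, C1 at 9.86%, C4 at 11.7%, C2 at 18.0%, C6 at 21.6%, C5 at 26.7% and C3 at 27.4%. In this order from C1 to EV the ranges of neighbouring lines overlapped each time, and EV and WT did not overlap. The order differed from that of NUP58, where C4 kept the highest mean level of the clones (25.5 ± 2.24 FPKM against 9.80 to 15.6 in the others). The bulk libraries cannot tell fewer ANXA1-expressing cells from less ANXA1 RNA per cell.

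**Figure D1:**
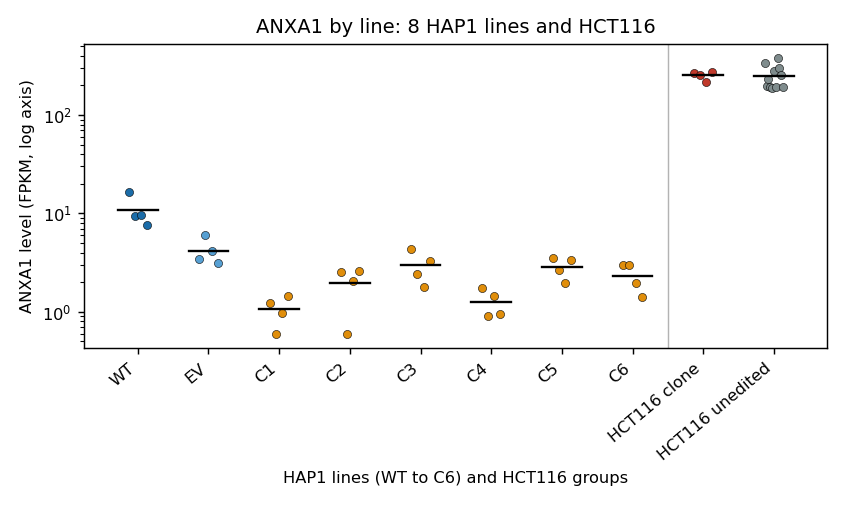
ANXA1 level in FPKM on a log axis for each library (points) and the group mean (bars) in the 8 HAP1 lines and in the HCT116 clone and unedited HCT116 groups. The 24 clone libraries sit between 0.588 and 4.38, below WT at 7.60 to 16.5, while both HCT116 groups lie at 188 or above.

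Put as log2(FPKM + 1), a scale that shrinks the changes of low genes, the differences of ANXA1 from WT were -2.48 for C1, -2.35 for C4, -2.02 for C2, -1.80 for C6, -1.57 for both C3 and C5, and -1.17 for EV. These 7 comparisons share the 4 WT libraries. Against EV, whose values also entered the choice of ANXA1, the mean of the 6 clones was at -0.79 (SE 0.198), given without a test. Of the clone libraries, 20 of 24 lay below the lowest EV library, and all 4 libraries of 4 of the 6 clones did. EV replicate 2 carried the highest value of its group, and without it the difference was -0.64. The contrasts among the 6 clones leave out WT and EV, although the fit took its spread from all 32 HAP1 libraries. ANXA1 differed there (limma F = 4.49, adjusted p = 0.0295, background 15.8% of genes called), with C1 and C4 lowest. Leaving out 1 of 7 single libraries (C1 replicate 2 or 3, C3 replicate 1 or 4, C4 replicate 4, C5 replicate 1 or 4) raised this adjusted p to between 0.0528 and 0.0687. Blocking on replicate number gave 0.00971 (25.9% of genes called), and dropping the filter on low FPKM gave 0.0618 (9.13%), both adjusted p from limma.

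The genes whose pattern over the 32 HAP1 libraries was most like that of ANXA1 were NQO1 (Pearson's r = 0.833), AC009005.2 (0.751), ULK4 (0.747), ARG2 (0.741) and EZR (0.740), among 13180 genes on the log2 scale. NQO1 encodes a quinone reductase, ARG2 a mitochondrial arginase, ULK4 a kinase-like protein and EZR ezrin, which links membrane and actin. The 32 points share lines and libraries, so r is a description. NQO1 had a mean FPKM of 65.9 in WT, 65.8 in EV and 30.1 in the clones, so that its mean in EV was close to that in WT.

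Of the other 9 members, 8 averaged 1 FPKM or more in HAP1 and were tested. S100A11 and ANXA5 fell in the mean of the 6 clones against WT, 2 of 8, where 6.60% of 13180 genes were called. In every comparison of this mean the spread came from libraries within groups. Its p-values therefore leave out the spread between clones. The log2 fold changes were -0.87 for S100A11 (SE 0.243, adjusted p = 0.0253) and -0.29 for ANXA5 (SE 0.0682, adjusted p = 0.00866), both from limma. The other 6 did not pass the threshold. S100A10 was at -0.45 (adjusted p = 0.0610), ANXA4 at -0.42 (0.20), ANXA2 at -0.23 (0.452), ANXA11 at -0.13 (0.481), ANXA7 at -0.07 (0.673) and ANXA6 at 0.08 (0.847), all adjusted p from limma. With the replicate number as a block, where 12.6% of genes were called, S100A10 (adjusted p = 0.0107, limma) and ANXA4 (0.0486) passed too, and S100A10 also passed under median-of-ratios scaling (0.0472). The median of the 8 was -0.26, against -0.02 for all genes tested. ANXA3, an annexin best known from neutrophils, ran from 0.155 to 1.17 FPKM in the WT and EV libraries and from 0 to 1.21 in the clone libraries, and was too low to test in HAP1.

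S100A11 stood at 72.4, 71.8, 48.7 and 37.8 FPKM in WT replicates 1 to 4 and at 52.6, 45.0, 34.7 and 32.9 in EV. C1 had 23.1, 21.3, 22.0 and 17.0, all below every WT and EV library. C2 had 42.6, 18.6, 20.3 and 12.4, the last being the lowest of all HAP1 libraries, and C3 had 31.6, 49.7, 14.1 and 25.8. C5, with 39.4, 58.7, 43.9 and 45.3, overlapped both controls. C4 (23.1 to 46.3) and C6 (25.1 to 55.4) lay between, and 14 of 24 clone libraries were below the lowest WT library. Because WT itself spread over 37.8 to 72.4, the call rests on WT replicates 1, 2 and 3, since the adjusted p was 0.137, 0.110 and 0.0516 when each in turn was left out, and 0.0756 without clone C1 (limma). Against EV the difference was -0.43 (SE 0.243, adjusted p = 0.305, limma), and EV against WT was -0.45 (SE 0.226, adjusted p = 0.9995, limma). Neither passed the threshold. In EV against WT none of the 8 other members was called, where 0.0380% of 13153 genes were, and 274 genes had an unadjusted p under 0.05.

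ANXA5, the annexin whose protein is used to stain phosphatidylserine on dying cells, had 147, 130, 123 and 126 FPKM in WT and 131, 149, 115 and 120 in EV. The clones stood at 92.0 to 132 FPKM, with means of 99.7 ± 5.04 for C1, 103 ± 8.46 for C3, 105 ± 4.07 for C6, 109 ± 7.74 for C2, 110 ± 2.70 for C5 and 119 ± 15.4 for C4 (SD, n = 4 for each). Of the 24 clone libraries, 22 were below every WT library and 21 below every EV library. The 2 libraries that overlapped WT were both of C4. The change was small, a mean of 108 ± 9.64 FPKM over the clones (SD, n = 24) or 81.9% of WT. Against EV it was -0.26 (SE 0.0682, adjusted p = 0.0167, limma), the single call among the 8 other members, where 8.47% of 13180 genes were called. Without WT replicate 1 the difference from WT was -0.23 with an adjusted p of 0.0861, and without EV replicate 1 or 2 the difference from EV had an adjusted p of 0.0706 or 0.155 (limma).

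**Figure D2:**
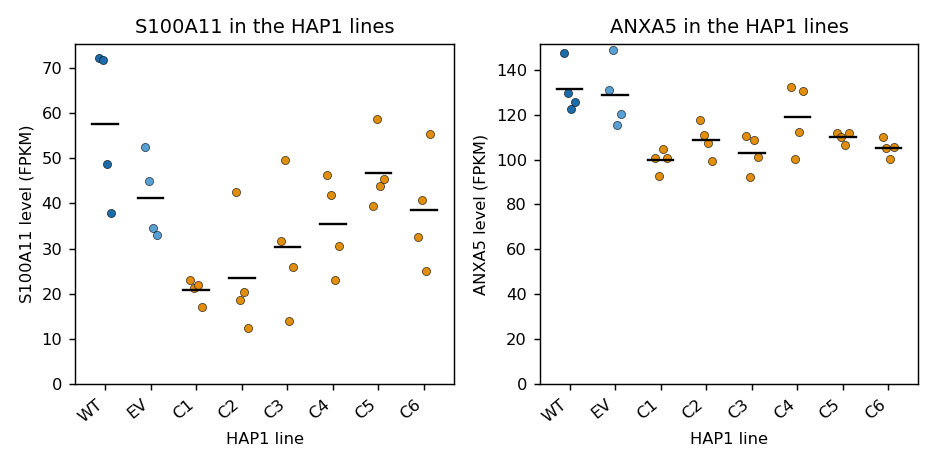
S100A11 (left) and ANXA5 (right) in FPKM, from 0, for each HAP1 library (points) with the line mean (bars). S100A11 spreads from 37.8 to 72.4 in WT, and C1 (17.0 to 23.1) lies below all WT and EV libraries, while 22 of 24 clone libraries lie below all WT libraries for ANXA5.

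Taken clone by clone, in fits of 4 libraries against the same 4 WT libraries, few members passed. In C1, S100A11 fell by 1.39 on the log2 scale (SE 0.208, limma, adjusted p = 0.0207), 1 of 8 members where 0.479% of genes were called. Without C1 replicate 1, 3 or 4 or WT replicate 1 its adjusted p was 0.0674 to 0.0824. In C6, ANXA2 fell by 0.45 (SE 0.115, adjusted p = 0.0316), ANXA5 by 0.31 (SE 0.0897, adjusted p = 0.0484) and S100A10 by 0.67 (SE 0.192, adjusted p = 0.0484, all limma), 3 of 8 where 11.7% of genes were called. ANXA5 was lost there with any single library left out (adjusted p 0.0514 to 0.129), and S100A10 with any of 7 (0.0522 to 0.125). ANXA2 was lost with any of 6 (0.0504 to 0.0849). None of the 8 passed in C2 (0.732% of genes called), C3 (0.0911%), C4 (0.160%) or C5 (7.55%). The libraries of C1 to C4 deviated together with the WT library of the same number, and in a fit blocked on that number S100A11 was called in C2 (-1.35, adjusted p = 0.0184, limma, 1.23% of genes called) and in C4 (-0.69, adjusted p = 0.0273, limma, 2.43%). Those of C5 and C6 did not all do so, and the same block called S100A10 in C5 (adjusted p = 0.0437, limma, 16.3%) and lost ANXA5 in C6 (adjusted p = 0.0768, limma, 9.81%). S100A11 also differed among the 6 clones (limma F = 3.96, adjusted p = 0.0490), a call that was lost on leaving out any of 25 of the 32 libraries (adjusted p up to 0.112).

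**Figure D3:**
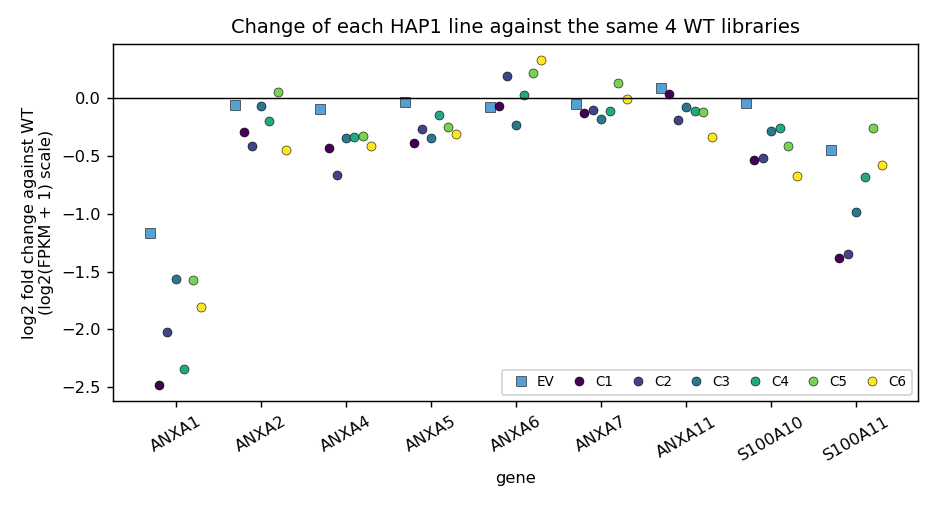
Log2 fold change of each HAP1 line against WT, on the log2(FPKM + 1) scale, for ANXA1 and the 8 other members above the filter (squares EV, circles C1 to C6). ANXA1, ANXA4, ANXA5, S100A10 and S100A11 are below 0 in every line, and S100A11 ranges from -1.39 in C1 to -0.26 in C5, while ANXA2, ANXA6, ANXA7 and ANXA11 lie on both sides of 0.

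S100A10 and ANXA2, the partners of 1 complex, kept a similar ratio in WT and EV. ANXA2 had 429, 400, 310 and 349 FPKM in WT, and S100A10 had 94.9, 97.2, 62.0 and 75.0. Replicate 3 was lowest for both, as it was in 6 of the 8 HAP1 lines for each gene. The level of S100A10 per ANXA2, a ratio of FPKM, averaged 0.220 ± 0.0178 for WT and 0.222 ± 0.00524 for EV (SD, n = 4 for each). In the clones it was between 0.159 ± 0.0114 in C5, where all 4 libraries lay below all WT and EV libraries, and 0.211 ± 0.0264 in C4. In unedited HCT116 it averaged 0.188 ± 0.0767 (SD, n = 11), between 0.0666 and 0.304. No test of the ratio was fixed, so these are values only.

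Within lines, several members rose and fell together from library to library. Over the 32 HAP1 libraries, with each line centred on its mean, the deviations of ANXA6 and S100A11 had a Pearson's r of 0.854, those of ANXA2 and S100A10 of 0.821 and those of ANXA4 and S100A10 of 0.799. ANXA1 was less tied to the rest, with r from -0.00390 (ANXA4) to 0.505 (ANXA2). The points share libraries and replicate numbers, so r is a description. Replicate 3 was lowest in 5 of 8 lines for ANXA4 and in 4 for ANXA5, ANXA6, ANXA7 and ANXA11, and replicate 2 was highest in 6 of 8 lines for ANXA4 and ANXA6. The part of the replicate number in these correlations was not tested.

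In unedited cells, 7 of 9 members were lower in HAP1 (8 libraries, WT and EV) than in HCT116 (11 libraries) and none higher. Of 13538 genes, 68.0% were called in either direction, so a call by itself was near the background. By direction, 5353 genes were called higher and 3854 lower in HAP1. ANXA3, the tenth, passed the filter on low values only through HCT116, so that it had to differ, and is described without a test. It had 0.529 ± 0.346 FPKM in HAP1 and 176 ± 98.5 in HCT116. ANXA1 had 7.48 ± 4.46 and 250 ± 68.2, a 33.5-fold ratio of means with a log2 fold change of -5.01 (SE 0.230, adjusted p = 1.02e-14). S100A11 had 49.5 ± 15.5 and 236 ± 46.7, at -2.26 (SE 0.151, adjusted p = 9.39e-12). Both tests are from limma, and all SD have n = 8 and 11. Of the rest, ANXA2 (-1.35), ANXA11 (-0.996), S100A10 (-0.99), ANXA4 (-0.74) and ANXA5 (-0.69) passed with adjusted p of at most 0.00311.

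ANXA6, an annexin with a duplicated core, and ANXA7, also called synexin, did not pass the threshold. ANXA6 had 50.2 ± 12.5 FPKM in HAP1 and 56.5 ± 11.1 in HCT116 (SD, n = 8 and 11), a log2 difference of -0.18 (95% interval -0.47 to 0.11, limma, adjusted p = 0.254). ANXA7 had 57.3 ± 4.77 and 62.0 ± 7.74, at -0.11 (-0.27 to 0.05, limma, adjusted p = 0.223), and was called lower in HAP1 under median-of-ratios scaling (-0.22, adjusted p = 0.0103). The ranges of the cell lines did not overlap for 5 of these 9 members (ANXA1, ANXA2, ANXA5, ANXA11 and S100A11), each lower in HAP1, as for 13.8% of genes in that direction. By mean level ANXA2 led in both lines, with 368 ± 70.1 and 932 ± 120 FPKM, and made up 45.4% and 41.9% of the FPKM of the 10 genes together. ANXA1 had rank 2 in HCT116 and rank 9 in HAP1, where the order was ANXA2, ANXA5, S100A10, ANXA7, ANXA6, S100A11, ANXA11, ANXA4, ANXA1 and ANXA3. Neighbours from S100A10 down to ANXA11 in this order overlapped in range, and so did ANXA4 and ANXA1. In HCT116 the order was ANXA2, ANXA1, S100A11, ANXA5, S100A10, ANXA3, ANXA11, ANXA7, ANXA6 and ANXA4, and neighbours overlapped except below ANXA2 and below ANXA11.

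**Figure D4:**
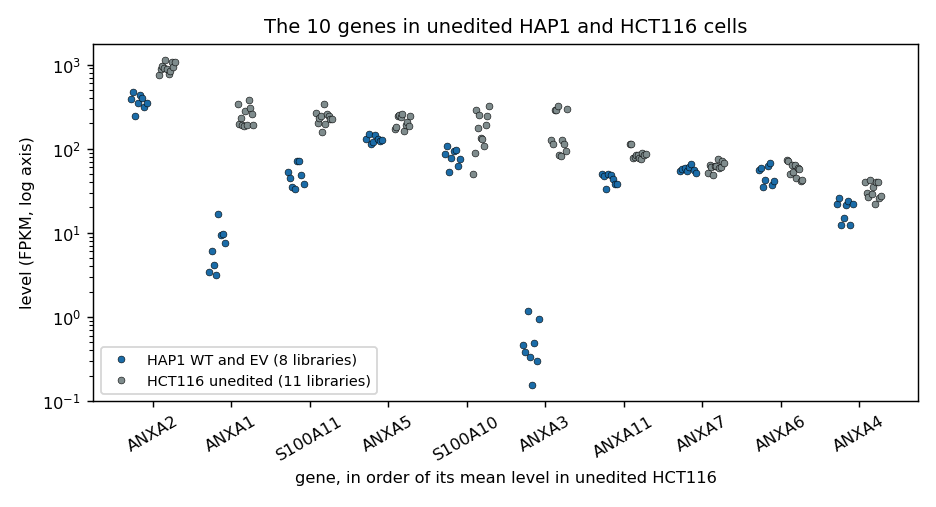
Level in FPKM on a log axis of the 10 genes in 8 unedited HAP1 libraries (WT and EV) and 11 unedited HCT116 libraries, 1 point a library. ANXA3 and ANXA1 are 333-fold and 33.5-fold higher by mean in HCT116, while the points of ANXA6 and ANXA7 overlap.

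In HCT116 the level of ANXA1 was high and no difference of the NUP58 clone was detected. The libraries labelled Clone had 268, 255, 218 and 271 FPKM and the 11 unedited libraries 188 to 382, with a median of 232. The clone libraries lay within the unedited range. The log2 fold change was 0.06 (95% interval -0.33 to 0.44, limma, adjusted p = 0.931), and the exact permutation p (two-sided, 1365 arrangements) was 0.774. Without the libraries numbered 3 it was 0.14 (adjusted p = 0.728, limma). None of the 10 members passed, as 0 of 12960 genes did (0% called), although 1342 genes had an unadjusted p under 0.05, S100A11 (0.42, adjusted p = 0.357, limma) and ANXA3 (-0.77, adjusted p = 0.476, limma) among them. Without the libraries numbered 3, where 5.92% of genes were called, S100A11 was higher in the clone by 0.53 (adjusted p = 0.0444, limma) and ANXA5 was at 0.49 (adjusted p = 0.0530).

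The difference of the mutated clones from their controls, called the response here, differed between the cell lines for S100A11 and ANXA5. The controls were unlike. The HAP1 side set the mean of 6 clones against WT alone, without EV, and the HCT116 side set 1 clone against all unedited libraries together. Against EV, the HAP1 clones were at -0.43 for S100A11 (adjusted p = 0.305, limma) and at -0.26 for ANXA5 (adjusted p = 0.0167, limma). S100A11 had 328, 338, 286 and 295 FPKM in the libraries labelled Clone, where unedited HCT116 had 157 to 342 with a median of 234. The library labelled EV2 replicate 3 held the highest unedited value. The HAP1 response minus the HCT116 response was -1.30 for S100A11 (SE 0.315, adjusted p = 0.0190) and -0.55 for ANXA5 (SE 0.148, adjusted p = 0.0396), both from limma, where 1.80% of genes were called. They were 2 of 8 members, leaving aside ANXA1 and also ANXA3, which passed the filter only through HCT116. For ANXA1, described only, it was -2.02. Without the HCT116 libraries numbered 3, where 6.67% of genes were called, S100A11 was at -1.40 (adjusted p = 0.00834) and ANXA5 at -0.78 (adjusted p = 0.000199, limma). S100A11 was lost without WT replicate 1 or 2 of HAP1 or without the library labelled Clone replicate 1 or 2 (adjusted p 0.0555 to 0.0687), and ANXA5 without any of 8 single libraries (0.0514 to 0.137): WT replicates 1 to 4 of HAP1, EV1 replicate 2 and the libraries labelled Clone replicates 1, 2 and 4.

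ANXA3 and S100A10 varied widely between unedited HCT116 libraries that share a label. ANXA3 was at 83.8 and 82.5 FPKM in EV2 replicates 3 and 4 but at 290 and 321 in EV2 replicates 1 and 2. In EV1 it was at 127, 114 and 286 in replicates 1 to 3, and in WT at 126 and 115 in replicates 1 and 2. The control titled EV1 had 93.0 and that titled WT 296. The 11 values thus lay either at 82.5 to 127 or at 286 to 321, across the labelled lines, and the libraries labelled Clone, at 84.6 to 98.7, lay with the lowest. S100A10 ran from 50.5 in EV1 replicate 1 to 326 in the control titled WT and was 289 in EV1 replicate 3. The identity of these libraries was not tested.

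**Figure D5:**
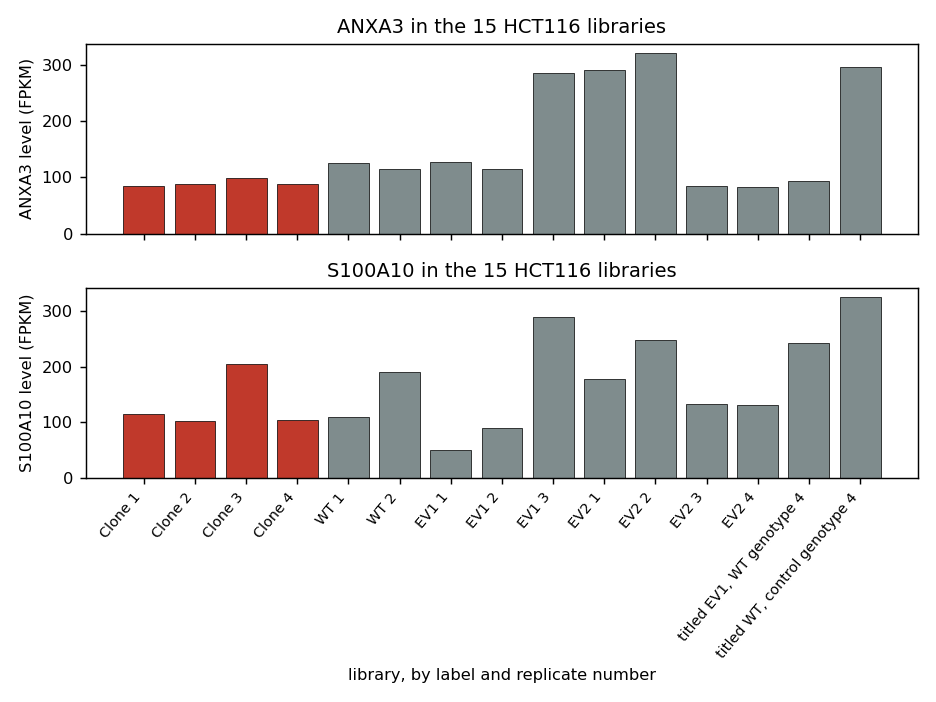
ANXA3 (top) and S100A10 (bottom) in FPKM, bars from 0, in the 15 HCT116 libraries named by label and replicate number (red, labelled Clone; grey, unedited). ANXA3 is near 290 to 321 in EV2 replicates 1 and 2 and near 83 in EV2 replicates 3 and 4, so libraries of 1 label differ.

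Among the other annexins, none of 5 (ANXA8, ANXA8L1, ANXA9, ANXA10 and ANXA13) reached a mean FPKM of 1 in HAP1. ANXA10, a gastric annexin, had a mean of 4.70 in unedited HCT116 and 0.00961 in unedited HAP1. Of 17 other S100 genes, 3 could be tested in HAP1. S100A6 (calcyclin), a binding partner of several annexins, fell in the mean of the 6 clones against WT (-0.98, SE 0.246, limma, adjusted p = 0.0136) and against EV (-1.27, adjusted p = 0.00120, limma), with a mean of 37.9 ± 16.1 FPKM for WT, 45.3 ± 12.4 for EV (SD, n = 4 for each) and 7.80 (C6) to 29.0 (C3) for the clones. S100A13 (-0.38, adjusted p = 0.422, limma) and S100A4 (0.02, adjusted p = 0.970, limma) did not pass. Thus 1 of 3 was called against WT and against EV, where 6.60% and 8.47% of all genes were. The median of the 3 was -0.38, against -0.02 for all genes. S100A6 also fell in C2 (-1.47, adjusted p = 0.0408, limma, 0.732% of genes called) and C6 (-2.08, adjusted p = 0.00104, limma, 11.7%), and differed among the clones (adjusted p = 0.00102, limma, 15.8%). Between unedited cells, where 68.0% of 13538 genes were called, the same 3 were lower in HAP1. S100A4 was at -6.22, S100A6 at -5.15 and S100A13 at -1.26 (adjusted p of at most 9.90e-06, limma), while S100A14 (0.422 FPKM against 78.1) and S100A16 (0.848 against 134) were too low in HAP1 for a test.

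The receptors that answer to released ANXA1 were at 0 in HAP1. FPR1, FPR2 and FPR3 were at 0 in all HAP1 libraries, and FPR1 had a mean of 0.277 FPKM in unedited HCT116. NR3C1, the glucocorticoid receptor, had a mean of 0.146 in unedited HAP1 and 3.93 in unedited HCT116. FKBP5, a glucocorticoid target, fell in the mean of the clones against WT (-0.30, SE 0.0887, limma, adjusted p = 0.0391) and against EV (-0.30, adjusted p = 0.0303, limma). It was 1 of 4 tested genes of this list of 11, where 6.60% and 8.47% of all genes were called. Of the 4, 2 were above 0 and 2 below 0 against WT. TSC22D3, of the same glucocorticoid axis, had a mean of 26.05 FPKM in the clones, 24.47 in WT and 18.05 in EV. Its clone means ran from 13.66 in C5 to 37.45 in C1, and its highest HAP1 library was at 102.3. FKBP5 had its lowest mean in C6 (12.5 FPKM against 24.4 in WT, adjusted p = 0.000698, limma, 11.7% of genes called). PLA2G4A, a cytosolic phospholipase A2, was higher in C6 than in WT (0.99, SE 0.237, limma, adjusted p = 0.0242), again where 11.7% of genes were called. EGFR was at 0.158 FPKM in unedited HAP1 and 13.4 in unedited HCT116.

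Of 13 repair and calcium-binding genes, 10 were tested in HAP1 and none passed in the mean of the clones against WT (median -0.11). Against EV, CHMP4B, a subunit of the ESCRT-III membrane-cutting machinery, fell by 0.23 on the log2 scale (SE 0.0643, limma, adjusted p = 0.0211), and in C6 against WT by 0.36 (SE 0.0996, adjusted p = 0.0417, limma). It was 1 of 10 each time, where 8.47% and 11.7% of all genes were called. CHMP4B, GCA and CAPN2 differed among the clones (adjusted p of 0.00328, 0.000359 and 0.00117, limma), where 15.8% of genes were called. PDCD6, the calcium sensor that binds ANXA7 and ANXA11, had a mean of 94.98 FPKM in WT and 79.1 to 90.8 in the clones. MYOF, a ferlin of membrane repair, was at 0.418 FPKM in unedited HAP1 and at 59.8 in unedited HCT116. Of 7 plasminogen genes, 4 were tested in HAP1 and none passed in the mean of the clones against WT or EV, while CTSB differed among the clones (adjusted p = 0.0402, limma, 15.8% of genes called). Plasminogen itself (PLG) was at 0 in every group.

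KRT8 and KRT18, keratins of simple epithelia, were lower in the mean of the clones than in WT, although KRT8 in C3 stood at a log2 fold change of 0.01. KRT8 fell in the mean of the clones against WT by 1.29 on the log2 scale (SE 0.169, adjusted p = 7.93e-06) and KRT18 by 0.67 (SE 0.0970, adjusted p = 3.63e-05, limma). The genes overlap on opposite strands, so that reads of one may be counted for the other. They are 2 of 4 tested genes of the 10 colorectal epithelium markers, where 6.60% of all genes were called. The summed FPKM of the 10 was 49.2 to 66.0 in unedited HAP1 and 22.0 to 53.0 in the clones. CDX2, an intestinal transcription factor, had a higher mean in each of the 6 clones (3.05 to 5.18 FPKM) than in WT (2.79) or EV (2.72), and rose in their mean against EV (0.46, SE 0.148, adjusted p = 0.0492, limma) but did not pass against WT (0.46, adjusted p = 0.0573, limma). EPCAM stood at 14.6 in C5 and at most 0.978 by mean in the other HAP1 lines. The part of these markers in the changes of ANXA1, S100A11 and ANXA5 was not tested.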

How the data were processed

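RNA was sequenced in 47 libraries. The authors deposited FPKM per gene and library, made per the labels with FastQC, STAR and RSEM on GRCh38 (versions not given in the sources used here), with no further normalization. All columns were used. Annotated positions are those of GENCODE on the same build, and promoters those of RefSeq (GRCh38.p14). Groups follow the labels. The members and lists were chosen with earlier results of these data known. All members are named, and from each list up to 4 genes past the threshold in a comparison, with further genes of the lists named after their values were seen. Genes that averaged 1 FPKM or more over a fit's libraries were tested with limma 3.58.1 (R 4.3.3, trend) on log2(FPKM + 1), with Benjamini-Hochberg adjustment over all genes tested and a threshold of 0.05. Comparisons were run on 32 HAP1 libraries, 8 for a single line against WT, 15 HCT116, 19 unedited or all 47 libraries. The study used two-sample tests of single clones, and limma was used here to share the spread across genes. The code was tested on simulated data. Same-numbered libraries correlated in their deviations from the line means with over 0.1 in all 4 pairs for EV and C1 to C4, but not for C5 and C6 (24 of 28 pairs, -0.375 to 0.747). One haematopoietic marker is not reported here. Depth is unknown, so no interval for counting error is given. Alternatives were the pseudocount (0.1), the filter, TPM and median-of-ratios scaling, the trend, the replicate block, 1 fit of all HAP1 libraries, and leaving out libraries, clones, conflicting controls or HCT116 libraries numbered 3.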

Additional observations from a re-analysis of the deposited data

Results flagged for a closer look

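The difference of the mutated clones from their controls differed between the cell lines for 2 members by a test of the difference itself. These were S100A11 (HAP1 minus HCT116, log2 difference -1.30) and ANXA5 (-0.55), both from limma. The control was WT alone in HAP1 and all unedited libraries in HCT116. A library stood apart from the others of its group, by Dixon's test at 95%, in 8 of 100 combinations of a member and a group of 4 to 10 libraries, where chance gives about 1 in 20. Of the 8, 7 were in a replicate 3. Among HCT116 libraries, that labelled Clone replicate 3 had 178 FPKM of ANXA5 (others 275 to 294), 45.4 of ANXA6 (73.1 to 77.1) and 206 of S100A10 (102 to 116). The library labelled EV2 replicate 3 had 281 FPKM of ANXA1 (others 188 to 192). Both are the libraries whose NUP58 level went against their labels. In HAP1, EV replicate 3 had 33.1 FPKM of ANXA11 (others 48.0 to 49.8) and 1.17 of ANXA3 (0.330 to 0.4657). C6 replicate 3 had 51.8 FPKM of ANXA6 (66.6 to 68.6) and C1 replicate 4 had 37.0 of ANXA11 (44.1 to 45.4). The cause was not tested.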

How the results depend on the processing

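Of 1904 member values recomputed over 59 results, 1777 were kept, 96 lost and 22 gained a call, 4 reversed and 5 moved. These totals include ANXA1 against EV and ANXA3 between the cell lines, which are described without a test. They leave out most members without a call in single lines, in HCT116 and in the response. Kept values had the same direction and side of the threshold, or among the clones the same side alone. ANXA1 against WT and in the response was kept if its direction held and its shift was under the SD of WT, and otherwise moved. The reversed values were near 0. ANXA6 in the mean of the clones against WT was -0.0682 without WT replicate 3 and -0.0142 without WT replicate 4 (range over single libraries left out -0.0682 to 0.217), and ANXA7 against EV was 0.0123 without EV replicate 3 (range -0.0383 to 0.0123) and 0.00633 without clone C3. Leaving out single libraries gave 0 to 3 members called for the clones against WT (2 with all), 0 to 1 in C1 (1), 0 to 1 in C2 (0), 0 to 2 in C6 (3), 0 to 3 among the clones (2) and 0 to 2 for the response that differs between cell lines (2). Against EV, where ANXA1 carries no test, ANXA5 was lost without EV replicate 1 or 2. S100A10 was gained there without C2 replicate 1 or EV replicate 3 (adjusted p = 0.0469 and 0.0168, limma), and ANXA11 without EV replicate 3 (0.0197, limma). With any single library left out, 0 members were called for EV against WT. Between unedited HAP1 and HCT116 the calls of ANXA1, ANXA2, ANXA4, ANXA5, ANXA11, S100A10 and S100A11 were kept each time, and ANXA3 carries no test there. Without the filter on low FPKM, 1 member was called against WT, 0 in C1, 1 in C6, 0 among the clones and 1 for the response. Without a trend C6 had 0 and the clones among each other 1, with TPM the response had 1, and leaving out clone C1 gave 1 against WT. The response had 1 without clone C1, C2, C5 or C6. One fit of all 32 HAP1 libraries called 2 members in C1 and 1 in C2, where it called 3.32% and 4.07% of genes. With the replicate number as a block 4 members were called against WT, adding S100A10 (adjusted p = 0.0107, limma) and ANXA4 (0.0486). The block also added S100A10 against EV (adjusted p = 0.0167, limma) and called 1 member in each of C2, C4 and C5 (S100A10, 0.0437). Over all genes the block called 1659 genes against WT, where 870 were called without it, and 2196 against EV, where 1116 were. Leaving out the HCT116 libraries numbered 3 called 1 member in HCT116, and doing so with the replicate block, a choice made after seeing the data, called 3 (S100A11 0.0218, ANXA6 0.0353 and ANXA5 0.0457, adjusted p from limma) where 10.3% of genes were called. With a pseudocount of 0.1 the described change of ANXA1 in the mean of the clones was -2.43. The causes were not tested.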
